A study of Mus musculus with 20 samples.

Results

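Germline pluripotent stem (gPS) cells were compared with the germline stem cells (GSC) from which they had been grown, across all genes measured on the array. The comparison used the 5 arrays titled gPSC_1 to gPSC_5 and the 3 titled GSC_1 to GSC_3, which are 8 of the 20 arrays of the series. The other arrays held embryonic stem cells (ESC), ESC-like cells, neural stem cells and mouse embryonic fibroblasts (MEF), and entered the fit and the side values below. The ESC-like cells had come from testes of newborn mice, at postnatal day 0 to 2. Both groups came from mice with the OG2 transgene, a green fluorescent protein driven by the Pou5f1 (Oct4) promoter, on a B6;CBA background. GSC had been established from testes, adult per the series title, and were passaged on inactivated MEF in a StemPro-34 medium with glial cell line-derived neurotrophic factor (GDNF, 10 ng/ml), epidermal growth factor (20 ng/ml), basic fibroblast growth factor (10 ng/ml), beta-estradiol and leukemia inhibitory factor (LIF). To obtain gPS cells, about 1000 GSC per well had been left on MEF in the same medium without passage. Round colonies bright for the reporter, which appeared within 3 to 4 weeks, were picked and expanded in ESC medium on MEF. The groups therefore differ in cell state, in the picking of colonies for the reporter and in medium, and these cannot be told apart. The labels do not say whether the arrays of a group are separate cultures or clones, and the p-values cover no more than the spread among these arrays, which may be technical.

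Germline stem cells are the self-renewing spermatogonia that found spermatogenesis, and in culture they depend on GDNF and produce germ cells only. Pluripotent cells of the ESC type divide fast, grow as tight epithelial colonies, run on glycolysis and can form every tissue of the embryo. Many germ cell proteins are copies of widely used enzymes and transcription factors, and their genes are kept silent in somatic and pluripotent cells in part by Polycomb complexes that hold E2F6, MAX and MGA.

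The label checks separated the groups. Nanog, which sustains pluripotency as a transcription factor, read 3.88, 4.11 and 3.88 (log2 intensity) in the GSC arrays and 11.74, 11.32, 11.80, 11.90 and 11.55 in the gPS arrays. Dazl, a germ cell RNA-binding protein, read 12.25, 12.14 and 12.25 in GSC and 4.90, 4.77, 5.24, 4.96 and 5.20 in gPS cells. The arrays did not overlap for either gene. Pou5f1 and Sox2, which GSC already express, rose by 3.21 and 2.01 log2 units, while the spermatogonial genes Gfra1 (fell by 4.02), Zbtb16 (fell by 2.00) and Ddx4 (fell by 4.57) were lower in gPS cells.

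Of 18193 genes, 1655 were called higher in gPS cells, 9.10% of those tested, and 1992 were called lower, or 10.9%, at an adjusted p under 0.05 (limma, Benjamini-Hochberg over all genes) and a difference of at least 2-fold. The median difference over all genes was 0.02 log2 units. Changes of 16-fold or more were made by 70 genes upward and 94 downward. Among called genes the gPS and GSC arrays did not overlap for 1588 of the 1655 higher and 1974 of the 1992 lower. The calling thresholds already select genes whose arrays lie apart, so these counts are no separate support for the calls. Array medians lay between 4.95 and 5.00, and a gene at or under this level cannot be told from background, which makes fold changes from there imprecise. The 3' minus 5' difference of the Actb control probe sets, a sign of RNA integrity, was 1.25 in GSC replicate 1 and 0.29 to 0.57 in the other 7 arrays. Of the gPS arrays, replicate 1 had 345 genes more than 1 log2 unit from the gPS mean, replicate 2 had 112 and the others 17 to 54.

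Among the lists drawn below, which leave out core pluripotency, germ cell and other cell type markers, those on glycolysis, the actin cytoskeleton, filaments and microtubules, epithelial junctions and oxidative defence had the largest shares of higher genes. The lists of X-linked reproductive homeobox and Mage genes and of antigen presentation had the largest shares of lower ones. The shares are drawn against those over all genes in the plot of called members by list.

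**Figure D1:**
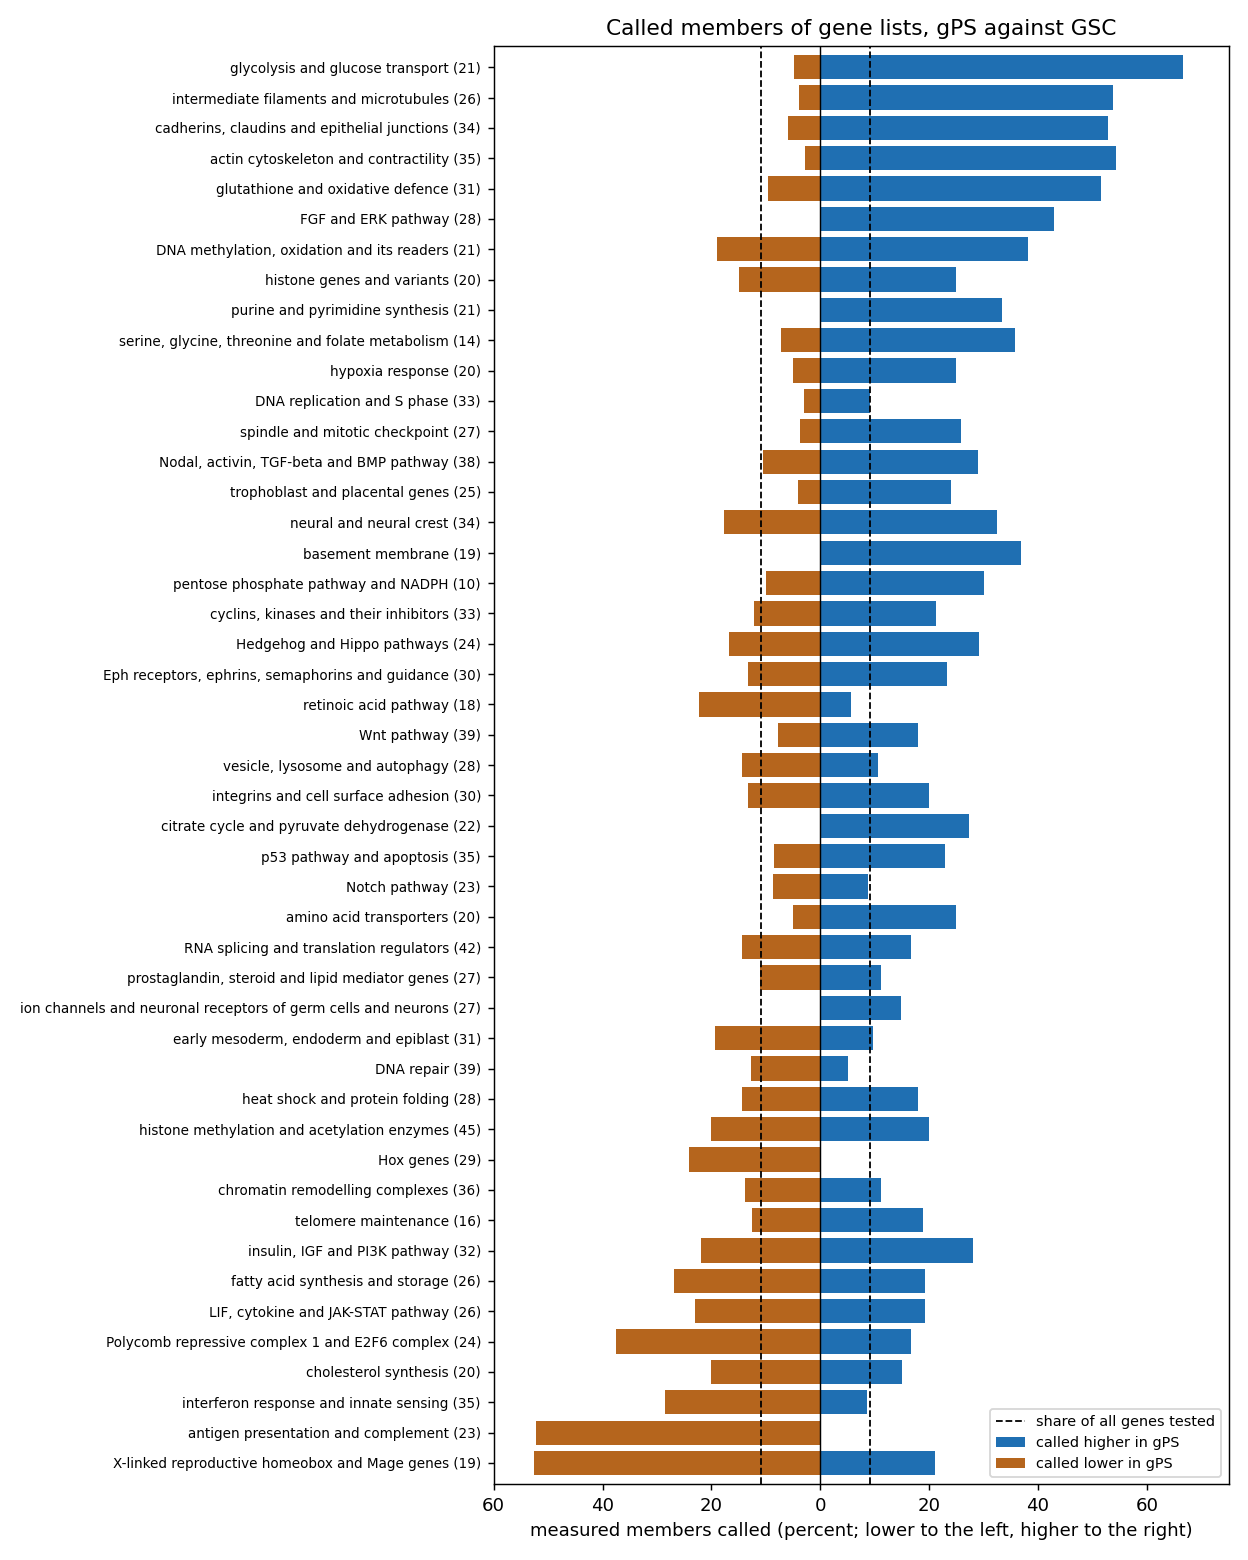
Bars give the percent of measured members of each gene list called higher (right, blue) or lower (left, brown) in gPS cells against GSC, with the number of measured members in parentheses and lists ordered by their median difference. Dashed lines mark 9.10% higher and 10.9% lower among all genes; glycolysis reaches 66.7% higher and antigen presentation 52.2% lower.

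Glycolysis had the largest share of raised genes among the metabolic lists. Of 21 measured genes of glycolysis and glucose or lactate transport, 14 rose, 1 fell and 6 were not called, with a median difference of 2.23 log2 units against 0.02 over all genes. The median level of the list was at most 9.07 in the GSC arrays and 10.24, 10.73, 11.16, 11.45 and 11.27 in gPS replicates 1 to 5, with no overlap. With probe sets whose name suffix marks shared probes left out, 8 of 14 list members rose. Transporters and the first kinase were among the raised genes, and members named here beyond the 4 largest rises were chosen after their values were seen. The glucose transporters Slc2a1 and Slc2a3 rose by 2.53 and 2.85 log2 units, and Hk2, the hexokinase that traps glucose, by 2.97. Hk1, the hexokinase of most adult tissues, was not called at -0.17 ± 0.32 (SE), and its gPS arrays spread from 6.65 in replicate 1 to 8.89 in replicate 5.

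Pfkl, a subunit of phosphofructokinase, the committed step of glycolysis, read 5.35, 5.24 and 5.64 in GSC and 9.89, 9.82, 10.50, 10.39 and 11.27 in gPS cells. That is a difference of 4.96 ± 0.24 (SE, adjusted p = 2.87e-13, limma), although another Pfkl probe set gave 0.21. Pfkp, another subunit, rose from a mean of 5.99 to 9.76, while the muscle subunit Pfkm was not called at -0.59. Pgk1, the first ATP-yielding enzyme of the pathway, read 9.05, 9.25 and 9.14 in GSC and 12.88, 12.91, 13.19, 13.04 and 13.20 in gPS cells, a 14.9-fold rise. Tpi1, which interconverts the triose phosphates, rose 9.05-fold. The aldolase genes moved in opposite directions, with Aldoa up by 2.23 and the brain form Aldoc down from 9.35, 9.61 and 9.43 to 7.01, 7.48, 8.80, 9.01 and 8.89. The fall of Aldoc lay mostly in gPS replicates 1 and 2, was -0.92 and not called without replicate 1, and its other probe set differed by 0.16.

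At the pathway's end, Pkm rose by 1.65, Ldha by 2.85 and the lactate exporter gene Slc16a3 by 3.12. Pdk1, which holds back pyruvate dehydrogenase, rose by 1.80, and so did Pdha1, the catalytic subunit of that enzyme, by 1.81. Of 22 citrate cycle and pyruvate dehydrogenase genes 6 rose and 0 fell (median 0.19). Idh2, mitochondrial isocitrate dehydrogenase, had the largest of those rises, from 4.99, 5.53 and 6.50 to 9.62, 9.21, 9.65, 9.65 and 10.27, with another probe set at 0.45. Dlst and Fh1, which act later in the cycle, were not called at -0.03 and -0.09, nor was the abundant Mdh2 at -0.79.

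A set of 4 genes of glucose sensing and glycogen use, named after their values were seen, fell. Txnip, which promotes removal of glucose transporters from the cell surface and binds thioredoxin, read 12.11, 11.96 and 12.06 in GSC and 6.52, 5.33, 6.68, 6.50 and 6.06 in gPS cells, a 56.7-fold fall. Its relative Arrdc4 fell by 2.04, and Mlxipl, which encodes the glucose-sensing factor ChREBP that drives both, fell by 1.47. Pygl, glycogen phosphorylase of the liver type, read 10.52, 10.22 and 10.29 in GSC and 3.00, 4.41, 5.93, 5.33 and 6.34 in gPS cells. Thioredoxin itself, Txn1, rose by 2.24.

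**Figure D2:**
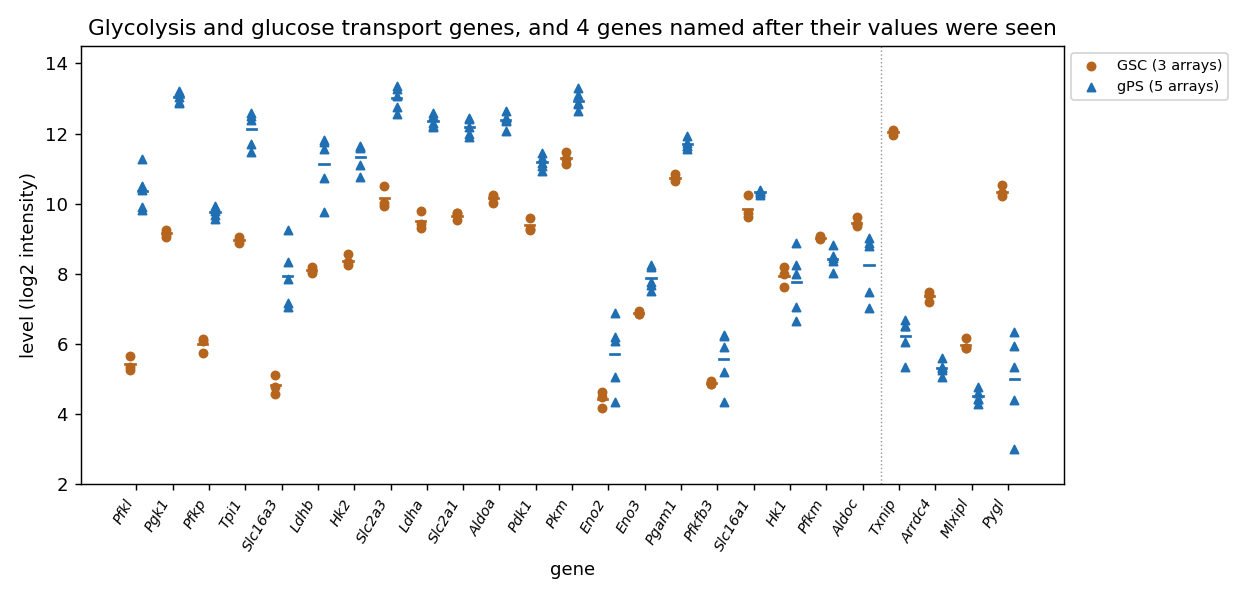
Points give the log2 level of each glycolysis or glucose transport gene in the 3 GSC arrays (brown circles) and 5 gPS arrays (blue triangles), with lines at the group means, ordered by their difference; the last 4 genes were named after their values were seen. Pgk1 spans 9.05 to 9.25 on the GSC arrays and 12.88 to 13.20 on the gPS arrays, while Txnip lies at 11.96 to 12.11 and 5.33 to 6.68.

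The promoters of 3 of the raised genes are shown because they hold ACGTG, the core of the site bound by hypoxia-inducible factors and, within the palindrome CACGTG, by MYC and MAX. The sequences are the reference strand of each gene, 5′ to 3′, from RefSeq on GRCm38.p6, and capitals mark ACGTG on either strand and CACGTG. The windows are chrX:106186899-106187018 on the plus strand for Pgk1, chr7:46845659-46845778 on the plus strand for Ldha and chr4:119108625-119108744 on the plus strand for Slc2a1.
Pgk1: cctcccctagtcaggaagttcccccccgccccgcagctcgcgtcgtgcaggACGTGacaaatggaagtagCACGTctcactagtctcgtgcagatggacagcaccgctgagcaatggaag
Ldha: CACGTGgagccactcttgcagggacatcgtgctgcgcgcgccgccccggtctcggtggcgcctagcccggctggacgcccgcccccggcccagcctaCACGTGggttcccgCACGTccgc
Slc2a1: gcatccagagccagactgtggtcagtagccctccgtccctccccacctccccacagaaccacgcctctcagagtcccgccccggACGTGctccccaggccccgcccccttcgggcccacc
Over the 300 bases around the start site, ACGTG was found on either strand in 6 of the 12 glycolysis genes with a single promoter window, and in 23.2% of the 11791 tested genes with one. Among called genes the share was 25.8% of 1013 higher and 26.6% of 1239 lower genes. A match is a description of the letters only.

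Some genes of one-carbon metabolism rose. Of 14 measured genes of serine, glycine, threonine and folate metabolism 5 rose, 1 fell and 8 were not called. Mthfd1l, a mitochondrial folate enzyme that yields formate, read 6.09, 6.78 and 6.63 in GSC and 9.07, 10.06, 9.79, 9.58 and 9.70 in gPS cells. Gldc, of the glycine cleavage system, rose by 2.63 and the cytosolic Mthfd1 by 2.31, while Mtr, methionine synthase, fell from 11.09, 10.69 and 10.80 to 7.90, 7.65, 8.32, 7.89 and 8.41. Psph and Shmt1, which make serine and glycine, were not called at 0.01 and -0.16. Of 21 purine and pyrimidine genes 7 rose and 0 fell, with Rrm2, of ribonucleotide reductase, and Dhodh, of pyrimidine synthesis, up by 3.48 and 2.02. Bcat1, which opens breakdown of leucine, isoleucine and valine, was among the 12 largest rises outside the excluded markers, at 3.86, 3.22 and 3.26 in GSC and 10.26, 9.78, 7.98, 7.97 and 9.07 in gPS cells. Named after their values were seen, its mitochondrial partner Bcat2 rose by 3.35, Dbt of the next enzyme complex by 3.82, and the cysteine-forming enzymes Cth and Cbs by 4.74 and 2.49.

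Amino acid transporters were higher in part. Of 20 measured, 5 rose and 1, the glycine carrier gene Slc6a9, fell by 1.07, with no lower call without gPS replicate 3 or 4 and with 2 without replicate 1. Slc7a3, a carrier of arginine and lysine, read 4.91, 4.96 and 4.88 in GSC and 10.15, 10.92, 10.18, 9.99 and 10.34 in gPS cells. Slc7a7, another cationic amino acid carrier, rose by 3.92, and the cystine carrier gene Slc7a11 was not called at -0.06.

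Lipid genes split between directions. Of 26 genes of fatty acid synthesis and storage 5 rose and 7 fell, with a median of -0.15. Fabp3, a fatty acid carrier, read 6.23, 6.17 and 6.02 in GSC and 10.54, 11.24, 11.29, 11.41 and 11.61 in gPS cells. The elongase gene Elovl6 and the desaturase gene Scd1 rose by 2.84 and 2.34, while Dgat2, the last step of triglyceride synthesis, fell by 2.63. Of 20 cholesterol synthesis genes 3 rose and 4 fell, with the isomerase gene Ebp up by 3.57 and Dhcr7, which makes cholesterol itself, down from a mean of 10.31 to 8.33.

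Genes that detoxify peroxides and electrophiles rose, with exceptions. Of 31 measured, 16 rose, 3 fell and 12 were not called (median 1.02). Gsta4, a glutathione transferase for lipid aldehydes, read 8.48, 8.37 and 8.33 in GSC and 11.71, 11.85, 12.06, 12.02 and 12.08 in gPS cells. Gstm2 rose by 3.46 and Nqo1, a quinone reductase, by 2.39. In contrast Gstm5, of the same transferase class as Gstm2, read 11.05, 11.24 and 11.22 in GSC and 6.93, 6.81, 7.65, 7.34 and 7.57 in gPS cells. Gclc (-0.96 and not called without GSC replicate 1), the rate-limiting enzyme of glutathione synthesis, and Prdx4, a peroxiredoxin of the endoplasmic reticulum, were lower at -1.15 and -1.16. Of 8 glutathione peroxidase genes, a family counted after values were seen, 5 rose and 0 fell, with Gpx4, which reduces lipid peroxides in membranes, at 1.88 and Gpx1 at 1.83. Gpx3 and Gclm were not called at 0.05 and 0.20, while another Gclm probe set differed by 1.90. Heat shock genes did not move one way, with 5 of 28 higher and 4 lower. The small chaperone gene Hspb1 read 7.83, 7.83 and 7.67 in GSC and 13.01, 12.28, 12.66, 12.54 and 13.20 in gPS cells, while the testis-rich Hspa4l fell by 4.29 and the inducible Hspa1b fell by 3.12.

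Epithelial junction genes formed the next raised group. Of 34 measured cadherin, claudin, desmosome and gap junction genes, 18 rose, 2 fell and 14 were not called (median 1.11). Cdh1, or E-cadherin, which joins the cells of a colony, read 4.31, 5.46 and 5.20 in GSC and 10.79, 11.35, 10.74, 10.97 and 10.74 in gPS cells, a 60.9-fold rise. Jam2, a junctional adhesion molecule, was among the 12 largest rises outside the excluded markers, at 6.06. The desmosome gene Dsp read 3.90, 3.90 and 3.43 in GSC and 6.72, 7.67, 9.02, 8.83 and 8.48 in gPS cells.

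The claudin genes Cldn4 and Cldn7, whose products seal tight junctions, rose. Cldn4 read 4.65, 4.69 and 4.93 in GSC and 7.73, 9.11, 9.70, 9.16 and 9.58 in gPS cells, and Cldn7 read 4.33, 4.90 and 5.04 and then 7.96, 8.69, 9.46, 9.46 and 9.70. For the claudin genes and Dsp, gPS replicate 1 was the lowest of the gPS arrays and still above every GSC array. Other tight junction genes went down: Ocln, or occludin, fell by 1.59 and its scaffold Tjp1 fell by 1.24. Ctnnb1, the cadherin partner beta-catenin, was not called at -0.36 ± 0.09 (SE).

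**Figure D3:**
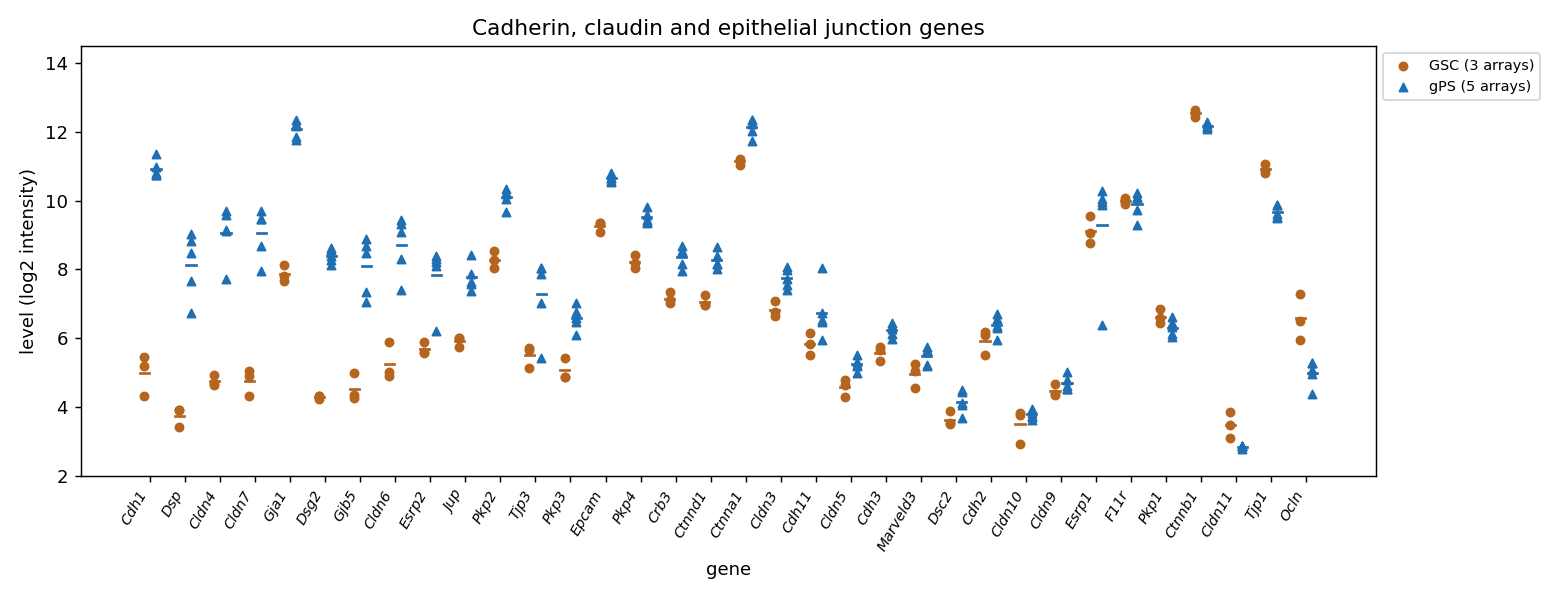
Points give the log2 level of the 34 measured junction genes in the 3 GSC arrays (brown circles) and 5 gPS arrays (blue triangles), with lines at the group means, ordered by their difference. Cdh1, at the left, spans 4.31 to 5.46 on the GSC arrays and 10.74 to 11.35 on the gPS arrays, and Ocln, at the right, fell by 1.59.

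Basement membrane genes rose in 7 of 19 cases and fell in 0, with 1 lower without GSC replicate 2 or gPS replicate 5. The laminin genes Lamc1 and Lama1, whose products assemble the first basement membrane of the embryo, rose by 2.66 and 2.30, and Lamb1 was not called at -0.82. Among 30 integrins and other surface adhesion genes 6 rose and 4 fell. Prom1, also called CD133, rose by 3.69 and Pecam1, a surface protein of ESC and endothelium, by 3.03, while Mcam fell by 3.39 and the surface antigen gene Cd24a was not called at 0.05.

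Of 26 intermediate filament and microtubule genes 14 rose and 1 fell (median 1.12); the 1 was Tubg1, gamma-tubulin, at -1.01, which lost its call without GSC replicate 1 or 3 or without gPS replicate 2, 3 or 4. Stmn2, a tubulin-destabilising phosphoprotein known from neurons, had the largest rise of all genes outside the excluded markers. It read 3.82, 3.17 and 3.91 in GSC and 10.27, 10.29, 10.03, 10.17 and 10.12 in gPS cells, against a mean of 11.15 in ESC. Tubb2b and Tubb3, tubulins also known from neurons, rose by 4.08 and 3.90, and the simple-epithelium keratin genes Krt8 and Krt18 by 3.16 and 1.90. Tubb4b was not called at 0.02, and with genes raised in MEF left out 9 of 19 list members were called higher.

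Of 35 actin cytoskeleton genes 19 rose and 1 fell (median 1.08), and the largest rises were smooth-muscle genes that fibroblasts express strongly. Tagln, an actin-binding protein, read 5.91, 6.41 and 6.13 in GSC and 9.14, 9.07, 9.48, 9.82 and 9.76 in gPS cells, against a mean of 13.3 in MEF. On the linear scale these gPS arrays stood at 5.32% to 8.94% of the MEF level and the GSC arrays at 0.594% to 0.841%. Acta2, smooth-muscle actin, stood at 6.99% to 10.4% in gPS cells and 0.742% to 1.17% in GSC, though another Acta2 probe set differed by -0.03. Over 15 feeder fibroblast markers the median share of the MEF level was 8.41% to 9.39% on the GSC arrays and 5.35% to 9.57% on the gPS arrays. Of the 16 markers with Fn1, 4 were called higher (Fbln2, Fn1, Prrx1 and Loxl1), 2 lower (Pdgfra and Col3a1) and 10 were not called, Col1a1 among them at -0.09. Fbln2 went from 1.89% to 2.44% of the MEF level in GSC to 5.9% to 7.77% in gPS cells, and Pdgfra from 16.4% to 18.7% down to 2.96% to 4.51%. When probe sets were averaged per gene, the calls of Fbln2 (0.77), Prrx1 (0.40), Loxl1 (0.68), Pdgfra (-0.99) and Col3a1 (-0.94) were lost, and without shared-suffix probe sets Fbln2 was at -0.14. Loxl1 was also not called without GSC replicate 2 (0.80), gPS replicate 2 (0.85) or gPS replicate 5 (0.95), and Col3a1 not with a replicate block (-0.97). The summed linear level of the 16 fibroblast markers, Fn1 included, was 2771 to 3633 on the GSC arrays and 4522 to 6794 on the gPS arrays, and that of 5 peritubular myoid markers was 248 to 321 and 1387 to 1999. Of these 5, Acta2 among them, 3 were called higher. Without shared-suffix probe sets 1 of 4 was, with Acta2 not called at 0.32. With genes raised in MEF left out, 8 of the 19 actin genes still tested were called higher. Fewer cells of a type and less RNA per cell cannot be told apart in these bulk samples, and the part of feeder cells in the actin result was not tested.

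Calcium-dependent membrane genes were counted after their values were seen. Of 11 annexin genes 5 rose and 0 fell, namely Anxa2, Anxa3, Anxa4, Anxa5 and Anxa6, at 1.33 (Anxa2) to 1.64 (Anxa3) log2 units, and with genes raised in MEF left out 1 of the 4 still tested was called. With the mean of each gene's probe sets 3 of 11 were called, Anxa2 (0.59) and Anxa6 (0.91) losing theirs, and without shared-suffix probe sets 2 of 8 were, with Anxa2 at 0.34. In the other direction, 10 of 22 genes of intraflagellar transport and the BBSome, the machinery that builds primary cilia and sperm tails, were lower and 1 was higher. Ift81 read 9.64, 9.70 and 9.63 in GSC and 7.31, 7.25, 7.56, 7.28 and 7.45 in gPS cells, and its partner Ift74 fell by 1.73. Ift46 was not called at 0.15, and Bbs5 was the member that rose.

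Genes of antigen presentation fell. Of 23 measured antigen presentation and complement genes 0 rose, 12 fell and 11 were not called, with a median of -1.03. Nlrc5, the transactivator of class I genes, read 6.18, 5.80 and 5.04 in GSC and 3.82, 3.63, 3.24, 3.53 and 3.41 in gPS cells. Genes of several steps of class I loading were lower, and without shared-suffix probe sets 7 of 15 list members fell. Psmb9, an immunoproteasome subunit that cuts peptides, fell by 2.29, and Psmb8 fell by 1.55, though it was not called at -0.84 as the mean of its probe sets. Tap2, which carries peptides into the endoplasmic reticulum, fell by 1.33, and Tapbp, or tapasin, which loads them, read 10.52, 10.19 and 10.33 in GSC and 7.73, 6.88, 8.14, 8.21 and 8.62 in gPS cells. Tap1, the partner of Tap2, was not called at -0.01 ± 0.18 (SE).

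Among the presenting molecules themselves, B2m, the shared light chain, read 10.60, 10.76 and 10.60 in GSC and 9.33, 10.34, 9.14, 9.51 and 9.13 in gPS cells. The class I gene H2-D1 fell by 1.32, H2-M3 fell by 2.61, and H2-K1 fell by 1.03, with gPS replicate 1, at 7.63, inside the GSC range of 7.45 to 7.74. The H2-K1 call was lost without GSC replicate 1 (-0.99) or 3 (-0.97), without gPS replicate 3 (-0.93), 4 (-0.88) or 5 (-0.92), and with a replicate block (-0.69). The 9 H2-D1 probe sets differed by -3.92 to -0.06, the gene was not called as their mean (-0.91) or without shared-suffix probe sets (-0.32), and these genes have close relatives that can share probes. Serping1, the inhibitor of the first complement component, read 9.80, 9.62 and 9.83 in GSC and 5.00, 5.55, 6.14, 6.47 and 6.05 in gPS cells.

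Of 35 interferon response and sensing genes 3 rose, 10 fell and 22 were not called (median -0.50). With dim genes left out 6 of 17 fell. Oasl2, an antiviral 2'-5' oligoadenylate synthetase-like gene, read 9.76, 9.27 and 9.20 in GSC and 4.48, 3.65, 4.59, 4.17 and 4.91 in gPS cells. Ifih1, which encodes the RNA sensor MDA5, fell by 3.23, Ifi27 fell by 3.65 and Irf1, an activator of class I and interferon genes, fell by 2.47. Mx1, Oas3 and Cxcl10, typical of an acute interferon response, were not called at -0.01, 0.02 and -0.02, and lay below the array medians in all 8 arrays. The 3 that rose were the Ifitm genes, membrane proteins that block virus entry. Ifitm3 read 7.96, 8.06 and 8.26 in GSC and 10.87, 11.15, 11.49, 11.45 and 11.66 in gPS cells, and Ifitm2 rose by 3.60. Ifitm1 read 9.72 in gPS replicate 1, under the GSC range of 10.25 to 10.51, and 11.53 to 12.23 in the other gPS arrays. Its call was lost without gPS replicate 3 (0.99) or 5 (0.96) and with a replicate block (0.74).

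Gbp genes, interferon-induced GTPases that attack vacuoles of pathogens, were counted after their values were seen, and 4 of 6 fell. Gbp2 read 9.69, 9.51 and 9.18 in GSC and 4.14, 4.17, 5.42, 5.24 and 4.83 in gPS cells, and Gbp3 fell by 4.81 and Gbp7 fell by 3.54. Of 11 Parp genes, chosen likewise, 6 fell and 0 rose, among them Parp12 and Parp14, which interferon induces, at -2.91 and -2.74. Parp1, the DNA break sensor, was not called at -0.52.

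**Figure D4:**
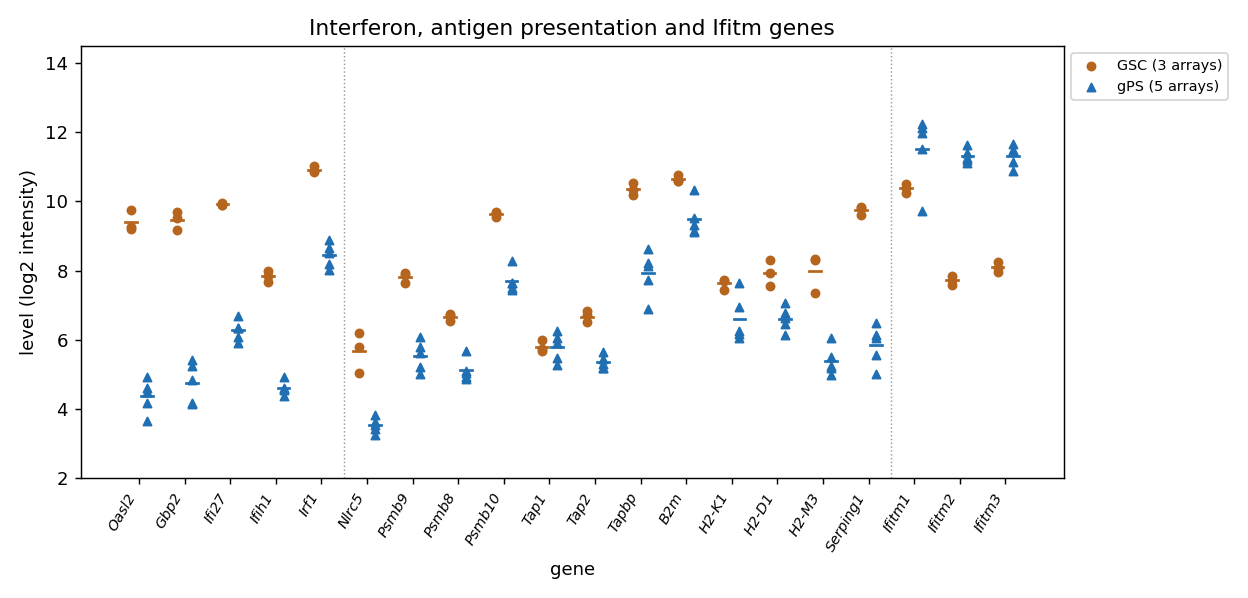
Points give log2 levels in the 3 GSC arrays (brown circles) and 5 gPS arrays (blue triangles) for interferon genes (left of the first dotted line), antigen presentation genes (middle) and Ifitm genes (right), with lines at the group means. Oasl2 spans 9.20 to 9.76 on the GSC arrays and 3.65 to 4.91 on the gPS arrays, Tap1 does not separate, and Ifitm2 and Ifitm3 lie higher in every gPS array.

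Promoters of 3 of these falling genes and of B2m are shown because they hold TTTC, any 2 bases and TTTC again, the core of the element bound by interferon regulatory factors. Capitals mark it on either strand, and the sequences are from RefSeq on GRCm38.p6, 5′ to 3′ on each gene's strand. The windows are chr3:142620543-142620662 for Gbp2, chr3:142559924-142560043 for Gbp3, chr3:142530216-142530335 for Gbp7 and chr2:122147488-122147607 for B2m, all on the plus strand.
Gbp2: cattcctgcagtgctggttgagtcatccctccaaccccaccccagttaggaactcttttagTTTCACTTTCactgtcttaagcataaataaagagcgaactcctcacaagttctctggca
Gbp3: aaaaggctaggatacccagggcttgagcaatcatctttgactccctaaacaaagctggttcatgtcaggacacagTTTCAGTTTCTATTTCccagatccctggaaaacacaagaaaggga
Gbp7: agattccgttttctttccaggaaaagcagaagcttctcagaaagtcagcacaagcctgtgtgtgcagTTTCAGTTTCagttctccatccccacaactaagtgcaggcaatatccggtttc
B2m: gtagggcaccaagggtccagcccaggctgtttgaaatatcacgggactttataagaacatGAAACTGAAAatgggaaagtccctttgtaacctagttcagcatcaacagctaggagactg
This motif on either strand was found in the 300 bases around the start of 14 of 23 interferon list genes and 3 of 13 antigen presentation list genes with a single window, and in 3.07% of all 11791. Among called genes it was in 2.96% of those higher and 3.23% of those lower. By size of fall it was in 2.6% of 883 genes lower by 2- to 4-fold and 2.42% of 289 lower by 4- to 16-fold. Of 67 genes lower by 16-fold or more, 14.9% held it.

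Macrophage markers moved with the immune genes in part. Lyz2, lysozyme of macrophages, read 11.03, 10.91 and 10.93 in GSC, 8.78 in gPS replicate 2 and 5.20 to 6.60 in the other gPS arrays, and the adaptor gene Tyrobp fell by 1.67. The other 7 of the 9 markers were not called, and the leukocyte gene Ptprc lay at 3.75 to 3.94 on the GSC arrays and 2.95 to 3.55 on the gPS arrays. The summed linear level of the 9 markers, most of it Lyz2 in GSC, was 2401 to 2547 on the GSC arrays and 364 to 839 on the gPS arrays. Its part in the immune result was not tested. Of the Sertoli, Leydig and endothelial markers, 1 of 17 rose (Clu, 1.01, and not called at 1.00, 0.96 and 0.95 without GSC replicate 1, GSC replicate 3 or gPS replicate 1) and 1 fell (Wt1, from a mean of 6.42 to 4.00).

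The listed pairs join a widely used gene with a copy that the germline favours, or an X-linked with a Y-linked gene. The germline or Y-linked copy usually fell while its counterpart did not. The Y-linked genes Eif2s3y, Kdm5d, Uty and Usp9y are counted below as germline copies, and whether the germline favours them was not tested. Of 29 germline copies measured with a counterpart, 17 fell, 1 rose and 11 were not called. Of their 30 counterparts 9 rose, 3 fell and 18 were not called, and in 8 pairs the germline copy fell while the counterpart rose. Slc25a31, the ADP/ATP carrier of germ cell mitochondria, read 11.77, 11.78 and 11.70 in GSC and 4.08, 3.72, 3.57, 3.54 and 3.35 in gPS cells. Its counterpart Slc25a5, on the X chromosome, read 10.52, 10.84 and 10.90 in GSC and 12.85, 12.76, 12.88, 12.80 and 12.91 in gPS cells. The groups were apart in opposite directions for this pair. Another carrier gene, Slc25a4, was not called at 0.76.

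Some metabolic copies behaved likewise, and others did not. Tktl1, a transketolase-like gene, fell by 7.89 and Tkt, transketolase, rose by 1.66. Pdha2, the germ cell form of the pyruvate dehydrogenase subunit, read 8.21, 8.18 and 8.04 in GSC and 3.63, 3.56, 3.64, 3.37 and 3.42 in gPS cells, opposite to Pdha1. Ldhc, lactate dehydrogenase of sperm, fell by 1.21, from a low GSC mean of 6.33 to 5.12. Pgk2, a later sperm form, lay at 2.85 to 3.46 in all 8 arrays and was not called. Cox6b2, a testis form of a cytochrome oxidase subunit, was the copy that rose, by 1.62, and Cox8c was not called at -0.36.

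Y-linked copies fell as well. Eif2s3y, a translation initiation factor subunit, read 8.90, 9.26 and 8.74 in GSC and 4.51, 7.39, 4.21, 3.67 and 5.85 in gPS cells, and its X-linked partner Eif2s3x rose by 2.74. Another Eif2s3y probe set differed by -0.02. The histone demethylase genes Kdm5d fell by 2.67 and Uty fell by 1.43, while their X-linked partners Kdm5c and Kdm6a rose by 1.86 and 1.75. The pair of Usp9y (fell by 4.47) and Usp9x (not called at 0.09) was not called in opposite directions. When probe sets were averaged per gene, Uty (-0.68) and Kdm5c (0.82) were not called, and Usp9x was called higher at 1.44. The counterpart lies on the X chromosome in 6 of the 8 opposed pairs, in 11 of the 18 pairs whose germline copy fell and in 13 of all 30 pairs. The 6 include the pairs of the Y-linked Eif2s3y, Kdm5d and Uty. Among the remaining pairs the counterpart was mostly not called, as for Nxf2, an mRNA export factor (fell by 7.81), and Nxf1 (-0.60), the ribosomal protein gene Rpl39l (fell by 3.93) and Rpl39 (0.41), and Smc1b, a cohesin subunit used in meiosis (fell by 5.79), and Smc1a (0.79). Taf7l, a general transcription factor subunit, and Cstf2t, a polyadenylation factor, were lower at -7.20 and -1.02, and their counterparts Taf7 and Cstf2 were also lower, at -1.55 and -1.12, but not called as the mean of their probe sets (-0.88 and -0.21). The fall of Cstf2t was under 2-fold without GSC replicate 1 (-0.92), gPS replicate 1 (-0.93) or gPS replicate 5 (-0.99).

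**Figure D5:**
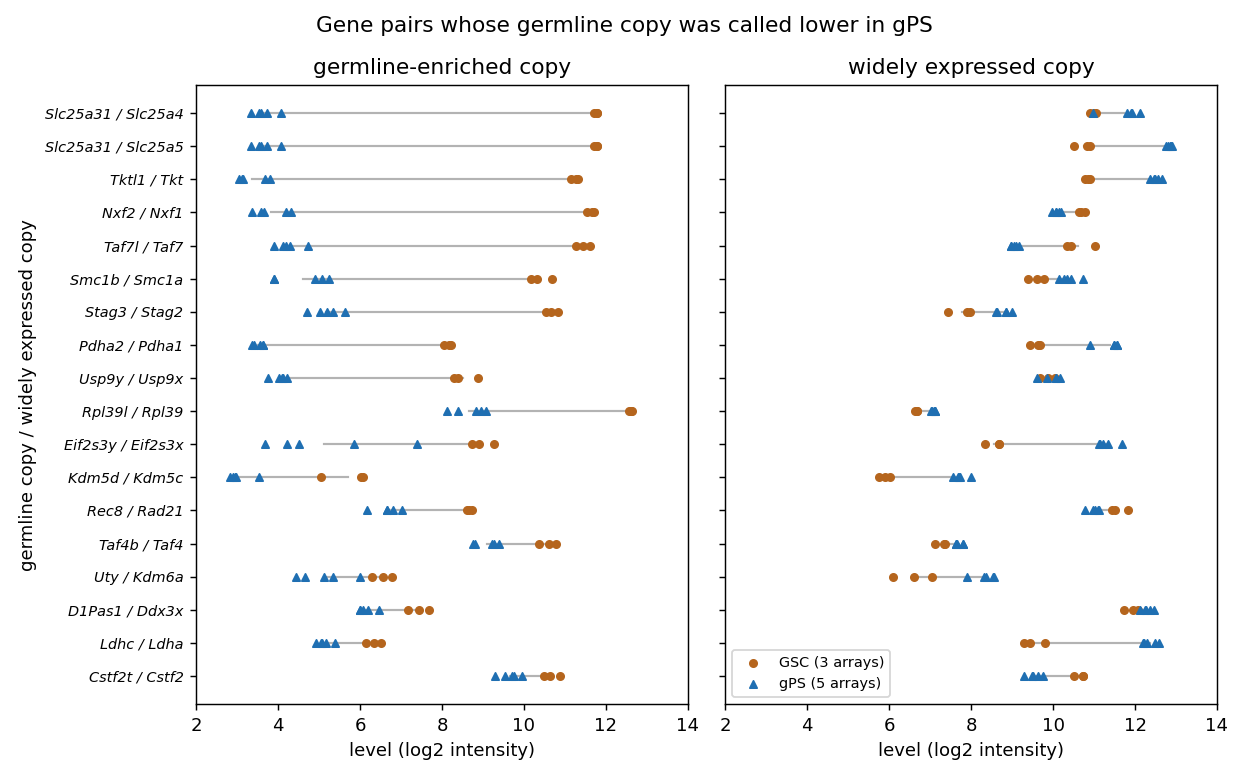
Each row is a pair whose germline or Y-linked copy was called lower, with that copy at left and its counterpart at right. Brown circles are the 3 GSC arrays and blue triangles the 5 gPS arrays on the log2 scale, and grey lines join the group means. Slc25a31 spans 11.70 to 11.78 on the GSC arrays and 3.35 to 4.08 on the gPS arrays, while Slc25a5 lies at 10.52 to 10.90 and 12.76 to 12.91.

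Promoters of 6 strongly falling germline genes are shown because they hold CACGTG, a palindrome bound by MAX with MYC or MGA. Capitals mark it, and the sequences are from RefSeq on GRCm38.p6, 5′ to 3′ on each gene's strand. The windows are chr3:40708718-40708837 (plus) for Slc25a31, chrX:134476491-134476610 (minus) for Taf7l, chrX:134964755-134964874 (minus) for Nxf2, chr5:138280279-138280398 (plus) for Stag3, chr1:166238875-166238994 (minus) for Mael and chr10:88459467-88459586 (plus) for Sycp3.
Slc25a31: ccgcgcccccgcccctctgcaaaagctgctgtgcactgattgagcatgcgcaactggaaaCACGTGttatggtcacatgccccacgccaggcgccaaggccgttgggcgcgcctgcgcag
Taf7l: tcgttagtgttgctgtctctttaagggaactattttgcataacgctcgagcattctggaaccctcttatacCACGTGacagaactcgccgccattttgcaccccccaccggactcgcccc
Nxf2: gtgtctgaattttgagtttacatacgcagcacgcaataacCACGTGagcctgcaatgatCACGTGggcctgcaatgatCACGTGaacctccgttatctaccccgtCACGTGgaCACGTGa
Stag3: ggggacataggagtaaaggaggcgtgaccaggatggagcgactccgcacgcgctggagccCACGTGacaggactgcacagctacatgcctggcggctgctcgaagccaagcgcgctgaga
Mael: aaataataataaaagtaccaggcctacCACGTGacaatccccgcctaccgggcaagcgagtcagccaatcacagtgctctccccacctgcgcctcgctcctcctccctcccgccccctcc
Sycp3: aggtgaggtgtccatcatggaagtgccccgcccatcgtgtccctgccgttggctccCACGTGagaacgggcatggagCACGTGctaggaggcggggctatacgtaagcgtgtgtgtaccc
CACGTG, which contains ACGTG, was present within 250 bases before and 50 after the start of 9.04% of the 11791 tested genes with a single window. The share was 11.2% of 883 genes lower by 2- to 4-fold, 11.4% of 289 lower by 4- to 16-fold and 28.4% of 67 lower by 16-fold or more, 19 genes. It was 11.7% of 3396 uncalled genes with a GSC mean above 7. Among genes higher by 16-fold or more it was 5.13% of 39. The 19 genes included meiotic and piRNA pathway genes, such as Sycp1, Mov10l1 and Ddx4, and others outside the germ cell list, such as Zic1, Reln and the peptide-trimming gene Erap1. Nxf2 has several windows and is not in these counts.

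Polycomb genes were lower more often than higher. Of 24 genes of Polycomb repressive complex 1 and its E2F6 form 4 rose and 9 fell (median -0.37). Scml2, a germline Polycomb protein on the X chromosome, read 11.41, 11.24 and 11.07 in GSC and 4.55, 3.86, 4.62, 4.78 and 4.57 in gPS cells. Bmi1, a core subunit, fell by 4.00, Cbx8 fell by 2.52 and Pcgf5 fell by 2.40, the last with another probe set at -0.12. Pcgf2, the close relative of Bmi1, rose by 1.56, and Phc1 and Cbx7 by 1.67 and 1.40, with Cbx7 at 0.80 and not called as the mean of its probe sets. Of the E2F6 form, Max rose by 1.18, and Mga, Rnf2 and Pcgf6 were not called at -0.59, 0.09 and 0.71. E2f6 itself read 10.09, 9.97 and 9.99 in GSC and 7.95, 7.49, 7.94, 7.79 and 7.60 in gPS cells, although another probe set differed by -0.25.

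Among the homeobox clusters, which pattern the body axis, most Hoxb genes fell. Those of the other clusters could hardly fall, since the median level in the GSC arrays was 4.19 to 4.63 for Hoxa and 3.51 to 3.64 for Hoxd, under the array medians, and 4.62 to 5.44 for Hoxc. By cluster, counted after the values were seen, 8 of 10 measured Hoxb genes fell, and of 10 Hoxa, 7 Hoxc and 9 Hoxd genes 0 were called in either direction, with 1 Hoxc gene lower without GSC replicate 1 or without gPS replicate 2. Hoxb6 read 7.23, 7.08 and 7.26 in GSC and 3.50, 3.91, 3.06, 3.28 and 3.03 in gPS cells, and Hoxb2 read 8.07, 8.13 and 8.27 and then 5.46, 4.61, 5.26, 4.91 and 5.35. Hoxb13, at the far end of the cluster, fell by 2.79, and Hoxb7 was not called at 0.07. With dim genes left out 5 of 6 Hoxb genes were lower. The median Hoxb level was 6.41 to 6.51 in the GSC arrays and 4.17 to 4.63 in the gPS arrays. Neural genes split, with 11 of 34 higher and 6 lower. Sox11 and Nefl rose by 3.56 and 3.40, and the transcription factor gene Zic1 read 9.87, 10.04 and 9.85 in GSC and 2.75, 3.33, 3.53, 3.05 and 3.37 in gPS cells. Nefm, next to Nefl in the neurofilament family, fell by 4.55.

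Among the signalling lists, only that of FGF and ERK had called genes in a single direction. Of 28 FGF and ERK pathway genes 12 rose and 0 fell (median 0.89). The ligand gene Fgf4 read 3.80, 3.99 and 3.84 in GSC and 9.76, 9.84, 9.71, 9.30 and 10.01 in gPS cells. The feedback genes Dusp4, Spry2 and Dusp6, which the pathway induces, rose by 2.71, 2.18 and 1.11 (Dusp6 0.98 and not called without GSC replicate 3), and the kinase gene Map2k2 was not called at 0.09. Spry2 varied among gPS arrays from 8.95 in replicate 5 and 9.86 in replicate 3 to 10.92 or above in the others, and its other probe set differed by 0.03.

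Of 26 LIF and JAK-STAT genes 5 rose and 6 fell. The receptor genes Lifr and Il6st were not called at -0.03 and -0.10. The kinase genes Jak1 fell by 2.60 and Jak2 fell by 1.55. Stat3 read 11.17, 11.16 and 11.27 in GSC and 9.06, 8.33, 8.38, 8.37 and 8.46 in gPS cells. Of the feedback inhibitors, Socs2 rose by 3.54 and Socs3 fell by 1.02. The Socs3 call was lost without GSC replicate 1 (-0.94), gPS replicate 2 (-0.96) or gPS replicate 5 (-0.95) and with a replicate block (under 2-fold). Of 32 insulin, IGF and PI3K genes 9 rose and 7 fell. The regulatory subunit gene Pik3r3 read 10.07, 9.84 and 9.74 in GSC and 5.72, 5.36, 5.49, 5.07 and 5.39 in gPS cells, and the receptor gene Igf1r fell by 2.87, while Eif4ebp1, a brake on translation, rose by 1.81.

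Of 24 Hedgehog and Hippo genes 7 rose and 4 fell. Yap1 and Wwtr1, the coactivators that Hippo signalling restrains, rose by 1.97 and 2.10, and their targets Ccn2 and Ccn1 by 3.58 and 3.17. Ccn2 lies at 13.11 in MEF, so feeder cells express it too. With genes raised in MEF left out, the list median went from 0.24 to 0.0, and the part of feeder cells was not tested. Lats2 and Sav1, of the kinase module, changed by -1.33 and -1.42. Of 39 Wnt genes 7 rose and 3 fell, and the receptor genes exchanged: Fzd5 and Fzd7 rose by 3.96 and 2.77 and Fzd3 and Fzd2 changed by -2.82 and -2.04. Of 18 retinoic acid genes 1 rose and 4 fell, with a median of 0.22 and 12 differences above 0. The retinol carrier gene Rbp4 and the retinoic acid-binding gene Crabp1 were lower at -3.11 and -2.78, and with genes raised in MEF left out 2 of 16 list members were lower.

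Replication genes were mostly not called. Of 33 replication genes 3 rose (Gins2, Cdc6 and Rfc5) and 1 fell, Rpa2 at -1.01, with 5 higher without gPS replicate 5 and 0 lower without GSC replicate 3 or gPS replicate 2 or 4. Mcm7, of the replicative helicase, was not called at 0.09. Of 27 spindle and mitotic checkpoint genes 7 rose, or 25.9%, and 1 fell, with 8 and 2 without gPS replicate 2. The mitotic kinase genes Plk1 and Aurka rose by 1.72 and 1.56, Birc5, of the chromosomal passenger complex, rose by 1.84, and Pttg1, or securin, fell by 1.85. Aurka was not called at 0.92 with probe sets averaged, nor Pttg1 at -0.33 without shared-suffix probe sets. Of 33 cyclin and kinase genes 7 rose, or 21.2%, and 4 fell. The kinase gene Cdk6 rose by 2.86, the retinoblastoma gene Rb1 fell by 2.26, and Cdk2 was not called at -0.02. Of 39 DNA repair genes 2 rose (Rad51ap1 and Fancb, with 1 higher without GSC replicate 2 or 3 or gPS replicate 2, 3 or 4) and 5 fell, among the latter the checkpoint kinase gene Atr (fell by 1.76, but -0.73 and not called as the mean of its probe sets). Tert, the telomerase catalytic subunit, read 8.15, 7.93 and 7.93 in GSC and 6.28, 6.77, 6.90, 7.16 and 6.62 in gPS cells, and was not called at -0.96 as the mean of its probe sets, while the telomerase RNA-binding gene Dkc1 rose by 1.39.

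Outside these lists, the largest rises included Mymx, a membrane fusion micropeptide known from muscle, Mylpf, a fast-muscle myosin light chain, Trh, the thyrotropin-releasing hormone gene, and Apela, a ligand of the apelin receptor. Mylpf read 5.64, 5.87 and 5.72 in GSC and 11.32, 11.24, 11.41, 11.60 and 11.39 in gPS cells. Trh read 4.58, 4.95 and 4.83 in GSC and 10.01, 9.91, 10.80, 10.87 and 11.03 in gPS cells. Both genes were also high in ESC, at means of 10.44 and 10.51. The largest falls included Uba1y, a Y-linked ubiquitin-activating enzyme, Taf9b, a transcription factor subunit, Bnc1, a zinc finger protein, Nlrp4c and the RNA-binding gene Rbm44. Bnc1 read 10.40, 10.33 and 10.16 in GSC and 3.28, 3.51, 3.59, 3.14 and 3.21 in gPS cells. Taf9b fell by 7.13, with another probe set at -0.08.

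By chromosome, the X held the largest share of higher genes. Of 618 X-linked genes 104 were higher, or 16.8%, and 85 lower, or 13.8%. Across the autosomes the shares ran from 6.89% (chromosome 2) to 11.7% (chromosome 8) higher and from 8.23% (chromosome 6) to 13.4% (chromosome 9) lower. Of 9 Y-linked genes 6 fell. All 4 Y-linked genes with a group mean above 7 fell, with a median difference of -4.16. Whether the Y-linked falls concern the whole chromosome or single genes was not tested. Among genes with a group mean above 7, 30.1% of 269 X-linked genes were higher and 23.4% lower, against 15.6% and 18.6% of 8085 genes on all chromosomes. X-linked genes that rose included Pgk1, Pdha1, Slc7a3, Eif2s3x and Mtm1, a lipid phosphatase whose mean went from 7.97 to 12.60, while Tktl1, Nxf2, Taf7l, Taf9b and Scml2 are X-linked genes that fell.

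The gPS arrays also varied among themselves. The homeobox genes Rhox5, Rhox6 and Rhox9, X-linked genes of reproductive tissue and placenta, were lowest in replicate 1 and intermediate in replicate 2. Of 19 measured X-linked reproductive homeobox and Mage genes, 4 rose and 10 fell (median -1.91). Rhox6 read 4.48, 4.10 and 4.97 in GSC and 4.48, 6.95, 9.04, 8.97 and 9.44 in gPS cells, and Rhox5 read 4.18, 4.46 and 4.97 and then 7.37, 8.39, 10.38, 10.37 and 10.13. Replicate 1 stood alone for Esrp1, an epithelial splicing regulator, at 6.37 against 9.86 to 10.28 in the other gPS arrays. In 2 germ cell genes chosen after their values were seen replicate 1 lay nearest GSC. The meiotic gene Stra8 read 8.02 in replicate 1 and 5.63 to 6.06 in the others, against at most 9.56 in GSC, and Syce1, of the synaptonemal complex, read 7.05 against 4.38 to 5.06.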

How the data were processed

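RNA of 20 samples had been hybridised to Affymetrix mouse arrays, 1 per sample, and the authors deposited log2 values from RMA (named in the submitters' processing notes), whose version is not given in the sources used here. Of 45101 probe sets, 34945 had 1 gene symbol, and for each of 18193 genes 1 probe set was kept, that of highest mean across the 20 arrays. Levels of different probe sets were not compared. Group means were fitted with limma 3.58.1 in R 4.3.3 over 6 groups and all 20 arrays, and the gPS minus GSC contrast was adjusted with Benjamini-Hochberg over all genes. A gene was called at an adjusted p under 0.05 and a difference of at least 2-fold. Tested on simulated data for this comparison, with 18193 genes, the fit recovered 54% of genes changed by 1 log2 unit, 98% of those changed by 1.5 and 100% of those changed by 3, with 0 false calls. The simulated noise was independent between genes, with no effect shared within an array, so the 0 false calls may not hold for the real arrays. A change of 1 log2 unit lies at the 2-fold minimum, which limits recovery there. The number of arrays limits precision. Gene lists and pairs were chosen with earlier results of these data known. Named genes were the label checks, up to 4 higher, 4 lower and 3 uncalled members of each list, both genes of each pair, and the 12 largest rises and falls outside pluripotency and germ cell lists with a higher group mean above 8 and arrays apart, plus cell type markers; genes beyond this rule were named after their values were seen. Families counted by symbol were also chosen after values were seen. Promoter sequences are RefSeq windows of 300 bases. Alternatives changed the arrays, the normalization, the probe sets, the filters and the thresholds.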

Additional observations from a re-analysis of the deposited data

Results flagged for a closer look

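In each of the following, 1 gPS array lay far from the other 4, by the ratio of its gap to the whole range. Chance flags about 1 in 20 groups.

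Replicate 1 was the array that stood apart in most cases. It was low for Esrp1 (6.37), Anxa2 (9.13), Bmi1 (5.04), Cd24a (9.20), Dbt (7.57), Dusp4 (5.89), Gldc (9.37), Ifitm1 (9.72), Pdha1 (10.89), Slc25a4 (10.97) and Socs2 (8.84). It was high for Mael (6.72), Mymx (11.1), Stat3 (9.06), Stra8 (8.02) and Syce1 (7.05), and the summed level of the Leydig cell markers was 124 there.

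Replicate 2 was high for Cxcl10 (4.83) and Kdm5d (3.54) and in the summed level of the macrophage markers (839), and low for Fzd3 (4.36), Jam2 (9.15) and Scml2 (3.86). Psmb8 was high in replicate 4 (5.67) and Map2k2 in replicate 5 (9.52).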

How the results depend on the processing

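The count of genes called higher, 1655, ran from 1624 to 1700 when 1 GSC array was left out and from 1609 to 1717 when 1 gPS array was left out, and the count called lower, 1992, from 1874 to 2096 and from 1979 to 2050. Counting probe sets in place of genes gave 3335 higher and 3512 lower. Dropping the fold minimum gave 4424 and 4829, and a 4-fold minimum gave 535 and 561. The deviations of same-numbered GSC and gPS arrays had correlations of -0.17, 0.137 and -0.094. Arrays with different numbers gave -0.248 to 0.199. With so few arrays these values cannot decide whether the numbers pair the samples, and the labels do not say. A fit with a replicate block called 1618 higher and 2063 lower. Without X and Y, an alternative chosen after seeing the data, 1551 and 1901 were called. With shared-suffix probe sets left out, which leaves another probe set of the gene, Aldoc changed direction to 0.16 and Fbln2 to -0.14. Low levels near background limit the size of the largest differences.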
